A study of Mus musculus with 16 samples.

Results

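Mitochondrial ribosomal proteins were followed in mouse resident macrophages with and without Bhlhe40. The members were all genes whose symbol begins with Mrpl or Mrps and a number and that had a probe set assigned to that gene alone, with pseudogenes left out. This gave 77 of the 19938 genes measured in this way, 48 Mrpl genes and 29 Mrps genes. All 77 were among the 11634 genes bright enough to be tested.

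Macrophages were sorted from male C57BL/6 mice and their RNA was measured on 16 one-colour Affymetrix gene arrays. The genotypes compared, as the study names them, were KO (Bhlhe40-/-), LysM (LysM-Cre+ Bhlhe40fl/fl) and WT (Bhlhe40+/+). KO mice lack Bhlhe40 in every cell, whereas LysM-Cre is active in macrophages, neutrophils and other myeloid cells. Large peritoneal macrophages (LPM) of mice injected with IL-4c, a complexed form of the cytokine IL-4, on days 0 and 2 and killed on day 4 gave 2 KO, 2 LysM and 2 WT arrays. LPM of untreated (naive) mice gave 3 KO and 3 WT arrays. Alveolar macrophages (AM) from lung digests of untreated mice gave 2 KO and 2 WT arrays. It is not stated if an array held cells of 1 mouse or of several, so the errors and p-values below describe the spread between arrays.

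The mitochondrial ribosome translates the few proteins that mitochondrial DNA encodes, all of them subunits of the respiratory chain or of ATP synthase. Its RNAs come from mitochondrial DNA, but all its proteins are encoded in the nucleus, made on cytosolic ribosomes and imported. The Mrpl proteins belong to the large subunit, which joins amino acids, and most Mrps proteins to the small subunit, which reads the mRNA. In macrophages, IL-4 is known to raise oxidative metabolism and, in the body cavities, to drive local division of resident cells.

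As whole lists, the LPM and AM markers fitted the labels of the sorted cells. All 11 measured LPM markers, Gata6 and Timd4 among them, exceeded the array median on every LPM array, and all 9 measured AM markers did so on every AM array. On all AM arrays 5 LPM markers exceeded it in KO and 4 in WT. The AM marker Marco did so on all LPM arrays, and Car4 and Chil3 did so on all IL-4c LPM arrays. The 7 measured epithelial and mesothelial markers had a mean of 5.01 to 5.57 on AM arrays, against 3.78 to 4.12 on LPM arrays. Of 4 tested, 3 were called lower in naive LPM than in AM in both genotypes, and Krt8 was not. Krt18, Msln and Upk3b read below the array median on every AM array. Replicate arrays correlated at 0.989 to 0.995 across probe sets. Bhlhe40 read 7.53 and 7.75 on the KO arrays of AM, against 9.57 and 10.07 on the WT arrays. In naive LPM the KO difference was -1.89 on the log2 scale (SE 0.15, limma adjusted p = 6.38e-06). In IL-4c LPM Bhlhe40 read 8.01 and 7.90 in KO, 8.75 and 8.83 on the arrays labelled LysM, and 8.77 and 8.99 in WT. Bhlhe40 was thus lower in KO (-0.93, adjusted p = 0.0132) but no decrease was detected for LysM (-0.09, adjusted p = 0.837), so that genotype rests on its label.

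Gene positions are those of RefSeq on GRCm38.p6. All levels below are log2 signals of a probe set and all differences are log2 differences, first group minus second, so that 1 unit is a doubling. A member is said to have risen or fallen if its adjusted p was under 0.05 in limma, fitted and adjusted over all 11634 genes. The members were well expressed. Averaged over the 16 arrays, Mrps27 had the lowest signal at 4.98 and Mrps18c the highest at 9.55, with a median over members of 7.3. Array medians over all probe sets lay between 4.79 and 4.93, and 76 of the 77 members exceeded them on all 16 arrays. Signals of different probe sets are not a measure of relative RNA amount. The genes lie on 17 chromosomes, and 19 of them overlap another protein-coding gene.

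IL-4c raised most of the family in LPM of both genotypes. In KO LPM 45 of 77 members rose and 1 fell, where 21.9% of all tested genes rose and 15.4% fell. In WT LPM 55 members rose and 1 fell, where 22% of all tested genes rose and 19.2% fell. The median member difference was 0.44 in KO and 0.62 in WT, beside medians of 0.04 and 0.02 over all tested genes. In either genotype 73 of 77 members lay above 0. Arrays of the compared groups did not overlap and stood higher with IL-4c for 58 members in KO (32.2% of all genes) and 68 members in WT (34%). In sorted cells measured in bulk, fewer cells with a given program and less RNA of it per cell cannot be told apart.

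**Figure D1:**
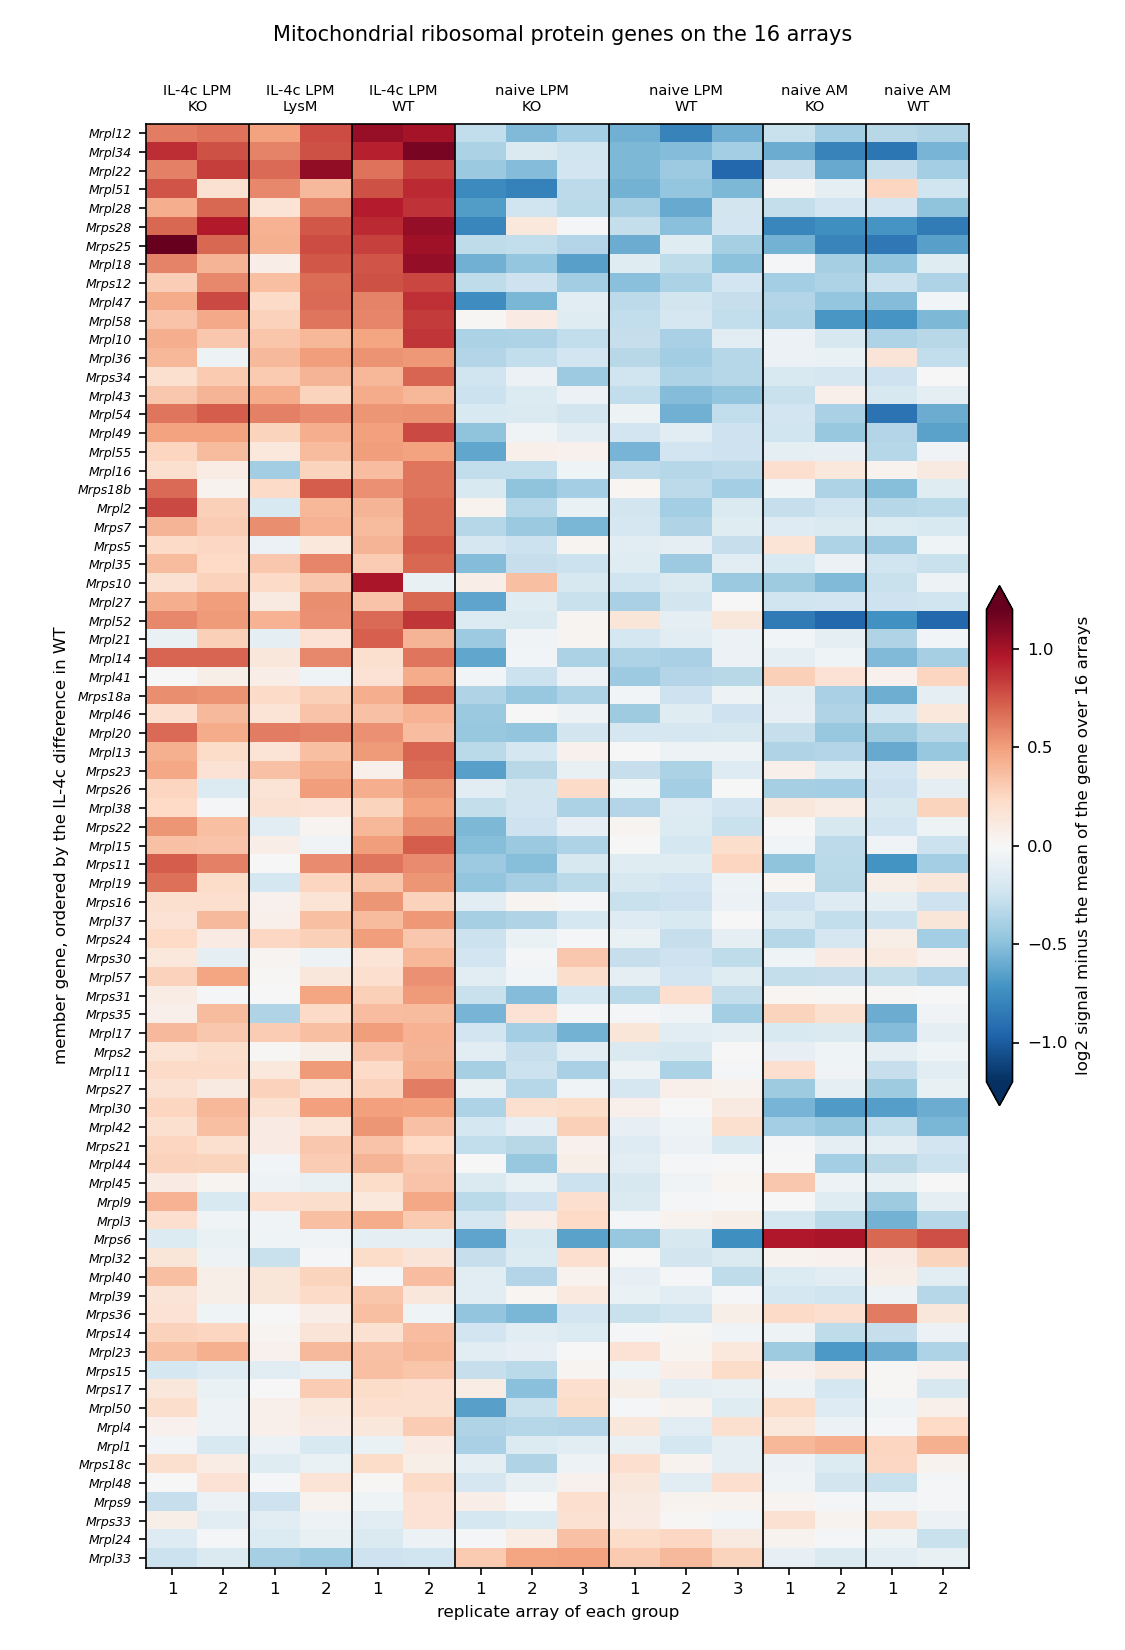
Log2 signal of each of the 77 members (rows) on the 16 arrays (columns), shown as the difference from the mean of that gene over all arrays (red higher, blue lower). Rows run from the largest to the smallest IL-4c difference in WT; the 6 IL-4c arrays on the left are red for most rows, Mrpl33 at the bottom is the opposite, and Mrps6 is highest on the 4 AM arrays.

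The mean over the 77 members shows the same on each array. It was 7.73 and 7.67 on the IL-4c KO arrays, 7.54 and 7.73 on those labelled LysM, and 7.81 and 7.91 on the IL-4c WT arrays. In naive LPM it was 7.10, 7.20 and 7.31 in KO and 7.25, 7.22 and 7.26 in WT. AM gave 7.29 and 7.20 in KO and 7.17 and 7.25 in WT. Every IL-4c array thus lay above every naive array of either cell type.

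Other marker lists moved with this difference, with the largest median for genes of cell division. All 9 measured proliferation genes, Mki67 and Top2a among them, rose with IL-4c in both genotypes, by a median of 1.49 in KO and 2.64 in WT. Their mean signal was 7.98 and 8.15 in IL-4c KO, 7.52 and 8.11 on the arrays labelled LysM, and 8.62 and 8.99 in IL-4c WT, against 6.15 to 6.86 in naive KO and 6.45 to 6.52 in naive WT. The 7 measured B cell markers had a mean of 3.83 to 4.02 with IL-4c and of 4.32 to 5.04 in naive LPM, with 0 and 1 of the 7 above the array median on every array. Of the 5 that could be tested, 5 fell in KO and 4 in WT. Of the 11 LPM markers 2 rose and 4 fell in KO (median -0.02), and 6 fell in WT (median -0.50), with all 11 still above the array median. Of the 9 AM markers 3 rose and 1 fell in KO (median 0.335), and 2 rose in WT (median -0.005). The AM marker Chil3 read 12.55 and 12.44 with IL-4c in KO, against 6.09, 3.81 and 5.17 in naive KO. In WT it read 12.49 and 12.39 with IL-4c, against 6.66, 6.5 and 7.2 without. Of 4 tested neutrophil markers 1 rose and 1 fell in KO, and 2 fell in WT. Of 3 tested markers of dendritic cells, monocytes or the smaller peritoneal macrophages 2 rose and 1 fell in KO, and 1 rose and 1 fell in WT. The part of these lists in the member differences was not tested.

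Mrpl12 showed the largest rise in WT. It forms the mobile stalk that recruits translation factors to the large subunit, and has also been described as a partner of the mitochondrial RNA polymerase. It read 8.80 and 8.84 on the IL-4c KO arrays, against 7.89, 7.66 and 7.78 on the naive KO arrays. In WT it read 9.23 and 9.19 with IL-4c, against 7.61, 7.39 and 7.61 without. The groups were far apart in both genotypes, 2.06-fold in KO (difference 1.04, SE 0.13, limma adjusted p = 1.79e-05) and 3.18-fold in WT (1.67, SE 0.13, adjusted p = 1.15e-07). Mrpl10, the protein to which the stalk is attached, rose by 0.73 in KO and 0.94 in WT.

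Mrpl34, a small protein of the large subunit with a bacterial counterpart, came next. Its signal was 8.61 and 8.49 with IL-4c in KO, against 7.35, 7.55 and 7.49 in naive KO. In WT the values were 8.66 and 8.87 with IL-4c and 7.19, 7.21 and 7.32 without. The rise was 2.12-fold in KO (1.08, SE 0.13, limma adjusted p = 1.89e-05) and 2.88-fold in WT (1.52, SE 0.13, adjusted p = 4.39e-07). Mrpl22, which lines the tunnel through which the new chain leaves, rose by 1.11 in KO and 1.38 in WT. It read 6.83 and 7.06 with IL-4c in KO, against 5.78, 5.71 and 6.00 in naive KO. Its WT values were 6.88 and 7.05 with IL-4c, against 5.69, 5.79 and 5.28 in naive cells.

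The promoters of these 3 genes, which had the largest rises in WT, are shown to compare what lies upstream of them. Each is the 250 bases before the start used in the RefSeq promoter table (build GRCm38.p6), 5′ to 3′ on the gene's strand, with the motif letters searched for in capitals. Upstream of the start, Mrpl12 holds an NRF1 motif, and Mrpl34 and Mrpl22 each hold an ETS motif. Mrpl12 and Mrpl22 each hold a further ETS match past the start, which is not printed. The start of Mrpl22 lies inside the annotated span of the gene.
Mrpl12, chr11:120484387-120484636, plus strand: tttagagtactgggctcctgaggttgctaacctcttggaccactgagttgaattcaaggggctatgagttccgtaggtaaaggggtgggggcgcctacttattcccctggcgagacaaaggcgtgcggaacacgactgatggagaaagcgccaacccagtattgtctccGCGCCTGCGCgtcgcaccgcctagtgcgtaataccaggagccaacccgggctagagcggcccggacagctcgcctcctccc
Mrpl34, chr8:71464676-71464925, plus strand: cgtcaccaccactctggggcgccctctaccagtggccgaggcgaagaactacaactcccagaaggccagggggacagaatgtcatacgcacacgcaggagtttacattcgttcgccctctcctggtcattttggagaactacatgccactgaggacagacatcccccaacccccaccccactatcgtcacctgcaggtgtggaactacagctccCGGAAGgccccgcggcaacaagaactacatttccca
Mrpl22, chr11:58171414-58171663, plus strand: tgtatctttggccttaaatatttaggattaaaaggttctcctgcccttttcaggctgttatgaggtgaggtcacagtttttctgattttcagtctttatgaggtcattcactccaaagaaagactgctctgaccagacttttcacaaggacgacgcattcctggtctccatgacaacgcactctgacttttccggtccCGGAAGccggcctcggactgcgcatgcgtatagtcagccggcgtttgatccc

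Motifs of factors known to act on mitochondrial genes were searched on both strands from 250 bases before to 50 after the start, in the 68 members that the table holds. The ETS motif CGGAAG, read by GABP, was present in 38 of 68 (55.9%), against 34.7% of 9327 tested genes and 18.8% of all 27025 genes in the table. The YY1 motif AANATGGC was present in 21 (30.9%, against 9.99% and 6.96%), and the NRF1 motif, GCGC on both sides of any 2 bases, in 14 (20.6%, against 14.8% and 7%). The Sp1 motif GGGCGG was found in 34 (50%, against 67.2% and 38.2%) and an E2F motif, TTTCCCGC or TTTGGCGC, in 2 (2.94%, against 3.55% and 1.8%). Matches of different motifs were counted separately even where they overlapped.

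Members rose with and without these motifs, and the differences between such groups were not tested. With IL-4c in WT, 19 of the 21 members with a YY1 motif rose (median 0.70), as did 29 of the 47 without it (median 0.53). Of the members with an ETS motif 28 of 38 rose (median 0.63), and of those without it 20 of 30 (median 0.53). With the NRF1 motif 9 of 14 rose (median 0.43), and without it 39 of 54 (median 0.65). With the Sp1 motif 21 of 34 rose (median 0.57), and without it 27 of 34 (median 0.66). With the E2F motif 2 of 2 rose, and without it 46 of 66 (median 0.58). With the E-box CACGTG, described further on, 4 of 5 rose (median 0.66), and without it 44 of 63 (median 0.60). Of all tested genes 22% rose in WT. In KO the medians with and without the motif were 0.605 and 0.368 for YY1, and 0.416 and 0.418 for ETS. They were 0.34 and 0.464 for NRF1, and 0.454 and 0.405 for Sp1, an order opposite to that in WT for Sp1. For E2F they were 0.712 and 0.405, and for the E-box 0.605 and 0.398.

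Further large-subunit members rose strongly. Mrpl51, which has no bacterial homolog, read 10.23 and 9.66 with IL-4c in KO, against 8.71, 8.67 and 9.16 in naive KO. Its values in WT were 10.24 and 10.37 with IL-4c and 8.91, 9.01 and 8.94 without. It rose by 1.10 in KO (SE 0.19, limma adjusted p = 0.000315) and 1.35 in WT (SE 0.19, adjusted p = 3.4e-05). Mrpl28 rose by 0.98 in KO and 1.32 in WT, and Mrpl18, related to the bacterial protein that binds 5S RNA, by 1.07 in KO and 1.22 in WT. Mrpl47 rose by 1.10 in KO and 1.01 in WT.

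Small-subunit members reached a similar size. Mrps25 (chromosome 6, 92169512 to 92184023), found only in mitochondrial ribosomes, had the largest rise in KO. It read 8.51 and 7.98 with IL-4c in KO, against 6.99, 7.0 and 6.94 in naive KO. In WT it read 8.11 and 8.31 with IL-4c, against 6.70, 7.15 and 6.89 without. This was a rise of 2.42-fold in KO (1.27, SE 0.17, limma adjusted p = 5.07e-05) and 2.45-fold in WT (1.29, SE 0.17, adjusted p = 2.52e-05). Mrps28 rose by 1.04 in KO and 1.32 in WT. Mrps12, a protein of the decoding centre, rose by 0.76 in KO and 1.15 in WT.

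**Figure D2:**
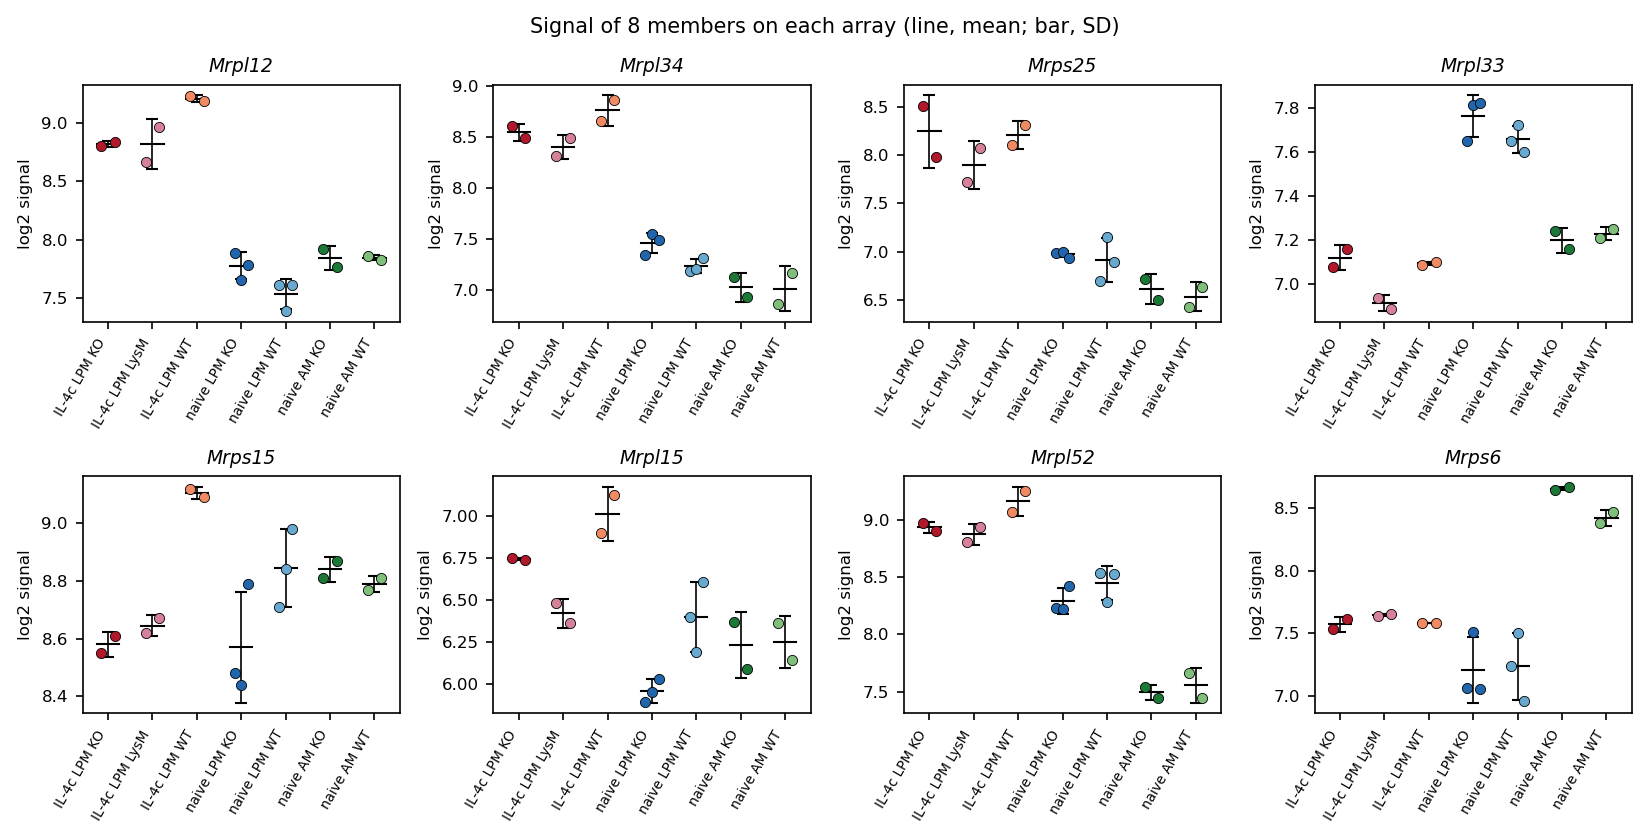
Log2 signal of 8 members on every array, in the 7 groups (points, arrays; horizontal line, mean; bar, SD, n = 2 or 3). Mrpl12, Mrpl34 and Mrps25 are higher in all IL-4c groups than in any naive group, Mrpl33 is lower with IL-4c than in naive LPM, Mrps15 is highest in IL-4c WT, and Mrps6 is highest in AM.

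Mrpl33 (chromosome 5, 31613951 to 31622644) moved against the family. This small protein of the large subunit read 7.08 and 7.16 with IL-4c in KO, against 7.65, 7.81 and 7.82 in naive KO. In WT it read 7.09 and 7.10 with IL-4c, against 7.65, 7.72 and 7.60 without. The arrays did not overlap, and it fell by 0.64 in KO (SE 0.11, limma adjusted p = 0.000295) and by 0.56 in WT (SE 0.11, adjusted p = 0.000635). No other member was called lower with IL-4c. Mrpl24, a protein near the tunnel exit, was the next in WT (-0.31, adjusted p = 0.0637, and -0.23 in KO).

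The 3 Mrps18 paralogs, which descend from 1 bacterial protein, differed in how many passed the test, with 2 called in each genotype. Mrps18a is in the large subunit of the assembled ribosome despite its name. It read 8.96 and 8.95 with IL-4c in KO, against 8.05, 7.95 and 8.04 in naive KO, and rose by 0.94 there and by 0.67 in WT. Mrps18b rose by 0.71 in KO and 0.83 in WT. Mrps18c, the brightest member, read 9.74 and 9.64 with IL-4c in KO, against 9.43, 9.19 and 9.49 in naive KO (0.32, adjusted p = 0.0717). In WT its arrays overlapped, at 9.77 and 9.62 with IL-4c and 9.75, 9.59 and 9.44 without (0.10, adjusted p = 0.586). The differences between paralogs were not tested.

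Members with known or proposed roles besides translation were mixed. Mrpl58, a peptide release factor that became a ribosomal protein, rose by 0.41 in KO and 0.98 in WT. Mrpl41, described in human cells as a partner of BCL2, differed by 0.16 in KO (adjusted p = 0.358) and rose by 0.68 in WT. Mrps30, another large-subunit protein under an Mrps name, differed by -0.02 in KO (adjusted p = 0.933) and rose by 0.56 in WT. Mrps36, now regarded as a part of the oxoglutarate dehydrogenase complex, rose by 0.48 in KO and differed by 0.30 in WT. Mrps5, a protein of the entrance through which mRNA is threaded, differed by 0.38 in KO (adjusted p = 0.0929) and rose by 0.74 in WT. Mrpl44, which carries a ribonuclease-like fold, was just outside the threshold in both (0.40 in KO and 0.41 in WT).

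Both subunits and both evolutionary classes took part. Of 48 Mrpl members 31 rose in KO and 35 in WT, with medians of 0.48 and 0.65. Of 29 Mrps members 14 rose in KO and 20 in WT, with medians of 0.37 and 0.57. Members with a bacterial homolog rose in 30 of 48 cases in KO and 34 of 48 in WT. Those without one rose in 14 of 28 cases in KO and 21 of 28 in WT. Of all tested genes 21.9% rose in KO and 22% in WT.

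For several members the probe set matters. Where a gene had more than 1 probe set the brightest was used, and 8 members had 2. Mrpl47's other probe set differed by 0.06 in KO and 0.22 in WT. Mrpl27's other probe set differed by 0.49 in KO and 0.30 in WT, where the one used gave 0.81 and 0.72. For Mrpl51 the second gave 0.83 in KO and 1.17 in WT. The probe sets used for Mrpl27, Mrpl41, Mrpl48, Mrpl51 and Mrps33 are numbered among probe sets of genes on another chromosome, with 0 of 10 neighbours on the gene's own, so their assignment is uncertain.

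**Figure D3:**
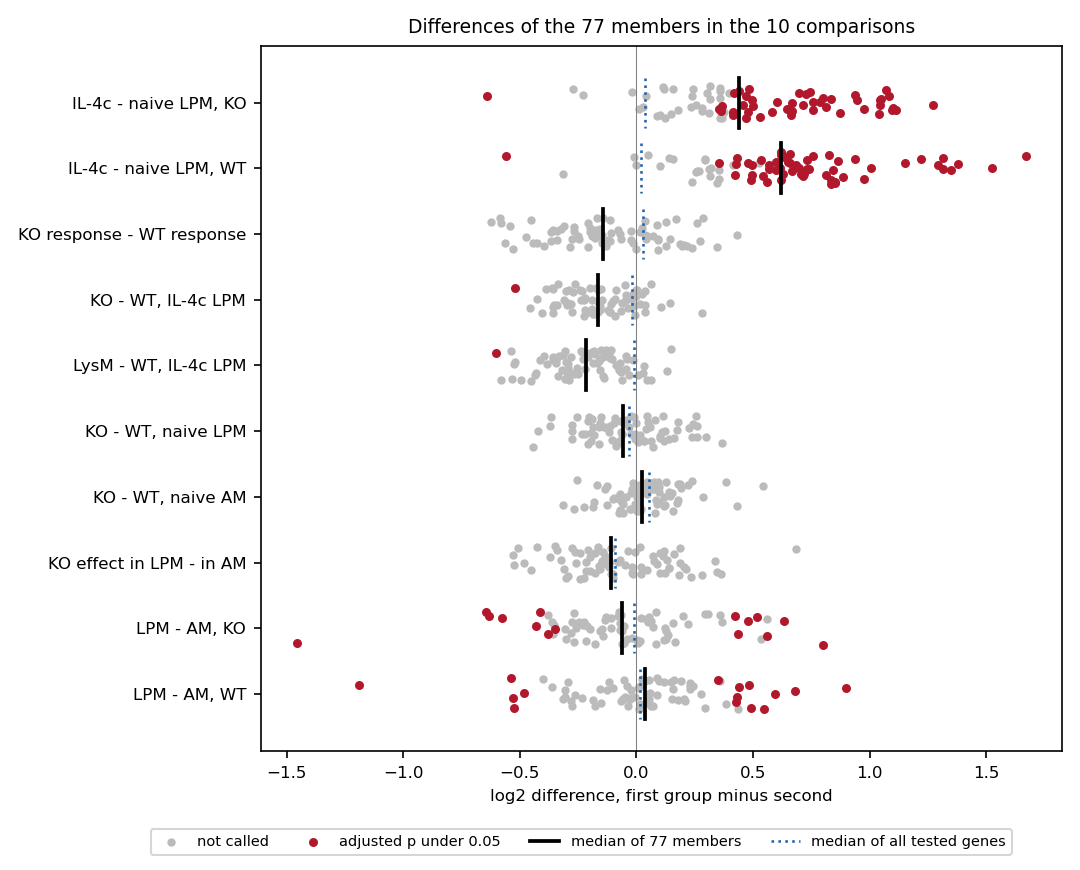
Log2 differences of the 77 members (points) in the 10 comparisons, with members at adjusted p under 0.05 in red. Black bars mark the member median and dotted blue bars the median of all 11634 tested genes; the medians stand apart clearly in the IL-4c responses (0.44 in KO and 0.62 in WT).

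The responses of KO and WT were then set against each other. Of the members that rose, 41 did so in both, which is 91.1% of the 45 in KO and 74.5% of the 55 in WT. Mrpl4, Mrpl23, Mrps14 and Mrps36 passed the threshold in KO alone. Those past it in WT alone were Mrpl16, Mrpl21, Mrpl30, Mrpl41, Mrpl42, Mrpl45, Mrps5, Mrps10, Mrps16, Mrps24, Mrps26, Mrps27, Mrps30 and Mrps31. The responses correlated across the 77 members with r = 0.797, and across all 11634 genes with r = 0.858, as a description over genes that share the same arrays.

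**Figure D4:**
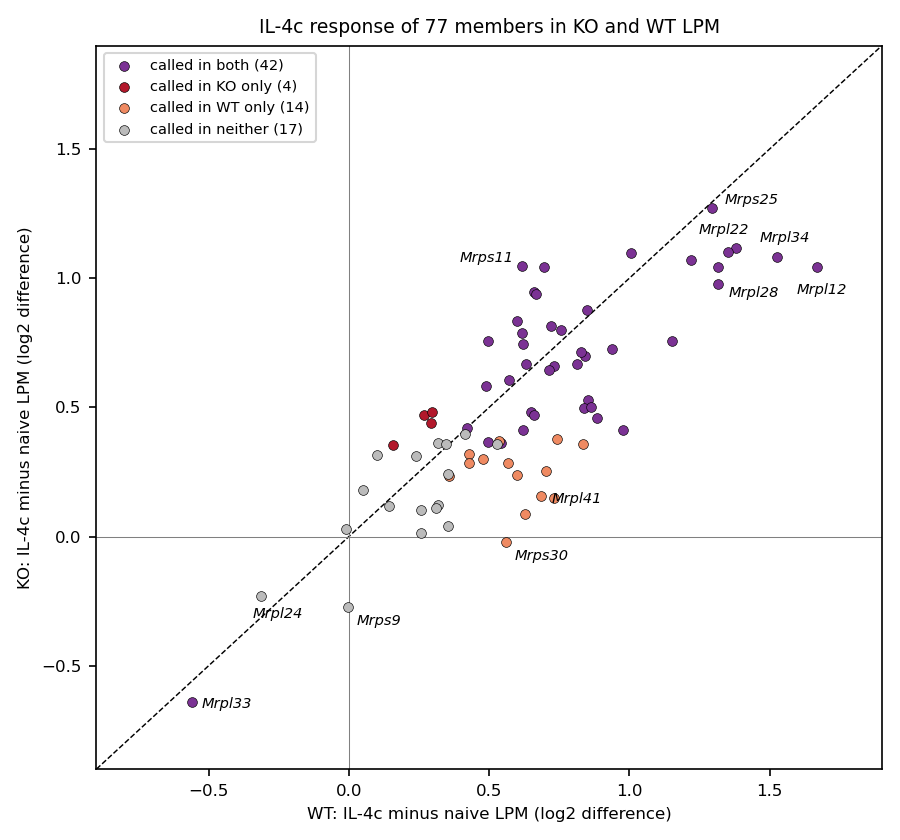
IL-4c difference in KO LPM (vertical axis) against that in WT LPM (horizontal axis) for the 77 members, both in log2 units, with the dashed line marking equal differences. Of the points, 42 were called in both genotypes, Mrpl33 at the lower left being the 1 that fell, and 51 lie below the line.

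A smaller response in KO could not be established for any member. The response in KO minus that in WT was called for 0 of 77 members in limma, where 0.55% of all tested genes were called in either direction. At an unadjusted p under 0.05 stood 6 members, all lower, which is 7.79% of members beside 13.1% of all tested genes. The median of this difference was -0.14 over members and 0.03 over all genes, and 51 of 77 members lay below 0, beside 46.5% of all genes. Mrpl12 had the lowest p (-0.62, 95% interval -1.01 to -0.24, adjusted p = 0.123). Mrpl41 (-0.53, adjusted p = 0.191) and Mrps30 (-0.58, adjusted p = 0.236) followed. The member median was -0.05 without the second IL-4c WT array and -0.07 without the third naive KO array.

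Within IL-4c-treated LPM, KO and WT were compared directly. Of 77 members 0 rose and 1 fell, where 2.12% of all tested genes rose and 1.5% fell (3.63% in either direction). The member median was -0.16, against -0.02 over all genes, and 67 of 77 members (87%) lay below 0, beside 53.1% of all genes. The KO arrays lay wholly below the WT arrays for 37 members, beside 24.8% of all genes, and wholly above for 2, beside 20.4%. At an unadjusted p under 0.05 stood 6 members (7.79%), all lower, beside 16.9% of all genes. Most members thus read slightly lower on the KO arrays, by amounts that were not resolved for single genes at 2 arrays a group. All members share these arrays, so their counts do not replicate the genotype.

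Mrps15 (chromosome 4, 126046928 to 126055536), a small-subunit protein that binds ribosomal RNA early in assembly in bacteria, was the member that fell. It read 8.55 and 8.61 in KO, 8.62 and 8.67 on the arrays labelled LysM, and 9.12 and 9.09 in WT. KO was 1.44-fold lower than WT (-0.52, SE 0.14, limma adjusted p = 0.0493). This call stood close to the threshold and was lost on leaving out any 1 of the 4 arrays. Mrpl12 (-0.39, adjusted p = 0.15) and Mrpl21 (-0.46, adjusted p = 0.214) had the next lowest p. Mrps5 differed by -0.33 and Mrps30 by -0.28, neither of them called.

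The arrays labelled LysM were set against the same 2 WT arrays. Again 0 members rose and 1 fell, where 4.8% of all tested genes rose and 3.87% fell. The median was -0.22, against -0.01 over all genes, with 70 of 77 members (90.9%) below 0, beside 51.7% of all genes. The arrays labelled LysM lay wholly below the WT arrays for 45 members, beside 25.4% of all genes, and wholly above for 3, beside 24.2%. At an unadjusted p under 0.05 stood 17 members (22.1%), all lower, beside 22.3% of all genes. This comparison depended on which LysM array was used. Without the first, 0 members were called and the median was -0.12. Without the second, 5 were called and the median was -0.31. Without the second WT array 0 were called.

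Mrpl15 (chromosome 1, 4773198 to 4785750), a core protein of the large subunit, was the member called. It read 6.48 and 6.36 on the arrays labelled LysM, 6.75 and 6.74 in KO, and 6.90 and 7.13 in WT. LysM was 1.52-fold lower than WT (-0.60, SE 0.16, limma adjusted p = 0.025), and KO differed from WT by -0.27 (adjusted p = 0.409). The call for Mrpl15 was lost without either LysM array and without the second WT array. Mrps22, specific to mitochondrial ribosomes (-0.54, adjusted p = 0.0511), and Mrps15 (-0.45, adjusted p = 0.0546) followed.

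Proliferation genes differed in the same 2 comparisons. All 9 lay below WT in both, with 2 called lower in KO (median -0.72) and 8 called lower on the arrays labelled LysM (median -1.06). Their part in the member differences was not tested.

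Bhlhe40 binds the E-box CACGTG, a motif also read by Myc and Usf factors. The E-box was present in 5 of 68 member promoters (7.35%), against 11.8% of tested genes and 8.09% of all genes. These were Mrpl2, Mrpl20, Mrpl36, Mrpl37 and Mrps18c. The median difference between KO and WT with IL-4c was -0.00 for these 5 and -0.16 for the 63 without it. For the arrays labelled LysM against WT the medians were -0.24 with and -0.19 without the E-box, and for KO against WT in naive LPM -0.18 and -0.05. Their order thus differed between comparisons. The related Bhlhe41 read 6.01, 5.43 and 5.79 in naive KO LPM, against 3.84, 4.73 and 3.94 in naive WT. With IL-4c it read 5.41 and 4.04 in KO, against 3.44 and 3.51 in WT. Its part in these medians was not tested. The 3 brightest of them are printed as above to show where the E-box lies, with searched motifs upstream of the start in capitals. Matches wholly past the start, an ETS motif in Mrpl36 and a YY1 motif in Mrpl37, are not printed. The start of Mrpl36 lies inside its annotated span.
Mrps18c, chr5:100798509-100798758, plus strand: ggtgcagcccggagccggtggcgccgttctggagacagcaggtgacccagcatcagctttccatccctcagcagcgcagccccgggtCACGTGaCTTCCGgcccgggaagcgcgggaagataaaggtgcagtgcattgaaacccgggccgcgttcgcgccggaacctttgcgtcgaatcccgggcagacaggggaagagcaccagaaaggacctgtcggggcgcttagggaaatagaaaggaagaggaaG
Mrpl36, chr13:73330759-73331008, plus strand: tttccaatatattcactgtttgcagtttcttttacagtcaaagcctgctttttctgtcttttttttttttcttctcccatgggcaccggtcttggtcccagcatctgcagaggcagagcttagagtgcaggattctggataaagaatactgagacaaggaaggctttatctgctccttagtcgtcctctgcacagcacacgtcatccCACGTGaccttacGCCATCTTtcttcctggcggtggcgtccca
Mrpl37, chr4:107066867-107067116, minus strand: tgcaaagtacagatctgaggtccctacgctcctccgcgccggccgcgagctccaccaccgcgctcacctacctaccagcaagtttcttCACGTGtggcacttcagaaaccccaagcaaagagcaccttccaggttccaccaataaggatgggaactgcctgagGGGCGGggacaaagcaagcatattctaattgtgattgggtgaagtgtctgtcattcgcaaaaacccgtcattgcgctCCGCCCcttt

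In Mrps18c the E-box stands 1 base from an ETS motif, and its last capital is the first base of an Sp1 motif that runs past the start. In Mrpl36 the E-box is followed by a YY1 motif on the other strand, and in Mrpl37 by a pair of Sp1 motifs. Mrpl36 rose with IL-4c by 0.46 in KO and 0.89 in WT, and Mrpl37 by 0.60 in KO and 0.57 in WT.

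In untreated cells no member passed the threshold between genotypes. In naive LPM 0 of 77 members were called between KO and WT, where 0.533% of all tested genes were higher in KO and 1.35% lower (1.88% in either direction). At an unadjusted p under 0.05 stood 9 members (11.7%, beside 15.1% of all genes), 3 higher and 6 lower in KO. The median was -0.06 over members and -0.03 over all genes, with 48 of 77 members (62.3%) below 0, beside 56.8% of all genes. The groups did not overlap for 7 members higher and 10 lower in KO, beside 7.06% and 15.9% of all genes. Mrpl4, which lines the exit tunnel, had the lowest p, with 6.54, 6.56 and 6.55 in KO against 7.04, 6.77 and 7.10 in WT (-0.42, 95% interval -0.67 to -0.17, adjusted p = 0.0816). Mrpl15 read 5.89, 5.95 and 6.03 in KO against 6.40, 6.19 and 6.61 in WT (-0.44, adjusted p = 0.0928). Mrpl17 differed by -0.37 (adjusted p = 0.172). For these 3 the KO and WT arrays did not overlap.

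In naive AM 0 members were called as well, where 0.0516% of all tested genes were higher in KO and 0.0688% lower (0.12% in either direction). At an unadjusted p under 0.05 stood 2 members (2.6%, beside 5.33% of all genes), both higher in KO. The median was 0.03 over members and 0.05 over all genes. The groups did not overlap for 15 members higher and 6 lower in KO, beside 24% and 12.4% of all genes. Mrpl54 read 7.82 and 7.66 in KO against 7.16 and 7.45 in WT (0.43, 95% interval 0.10 to 0.76, adjusted p = 0.866). Mrps35 differed by 0.54 (adjusted p = 0.934) and Mrpl14 by 0.38 (adjusted p = 0.939).

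The KO effect in LPM minus that in AM was called for 0 members, where 0.249% of all tested genes were called in either direction. At an unadjusted p under 0.05 stood 3 members (3.9%, beside 13.1% of all genes). Mrpl17 (-0.51, adjusted p = 0.311), Mrpl11 (-0.48, adjusted p = 0.346) and Mrps11 (-0.53, adjusted p = 0.38) had the lowest p. Mrpl11 belongs to the base of the stalk.

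LPM and AM differed in single members rather than in the family's median. In KO 7 members were higher in LPM and 8 lower, where 17.3% of all tested genes were higher and 22.8% lower. In WT 10 were higher and 5 lower, where 21.2% of all tested genes were higher and 17.1% lower. Called in either direction were 15 of 77 members in each genotype, beside 40% of all genes in KO and 38.3% in WT. The split depended on the scaling. With quantile normalization applied once more, 13 members were higher and 5 lower in KO, and 10 higher and 9 lower in WT. With each array centred on its median, 5 were higher and 12 lower in KO. Member medians were -0.06 in KO and 0.04 in WT, beside -0.01 and 0.02 over all genes. Called higher in LPM in both genotypes were Mrpl23, Mrpl30, Mrpl33, Mrpl42 and Mrpl52, and called lower in both were Mrpl1, Mrpl41, Mrpl51, Mrps6 and Mrps36. In KO the count of called members was 9 without the first and 8 without the second AM array. Some epithelial markers read higher on the AM arrays, and the part of such a signal in these differences was not tested.

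Mrps6 (chromosome 16, 92058336 to 92112227), a small-subunit protein with a bacterial counterpart, had the largest difference. It read 7.06, 7.51 and 7.05 in LPM against 8.65 and 8.67 in AM of KO mice. In WT mice it read 7.24, 7.50 and 6.96 in LPM against 8.38 and 8.47 in AM. It was 2.74-fold lower in LPM in KO (-1.45, SE 0.16, limma adjusted p = 1.42e-06) and 2.28-fold lower in WT (-1.19, SE 0.16, adjusted p = 1.42e-05). The gene overlaps Slc5a3, an inositol transporter gene, which was lower in LPM by 2.25 in KO (difference -2.25) and by 1.75 in WT (difference -1.75). Whether Slc5a3 RNA adds to the Mrps6 signal was not tested.

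Mrpl52 (chromosome 14, 54426909 to 54429750) had the largest difference in the other direction. It read 8.23, 8.22 and 8.42 in LPM against 7.54 and 7.45 in AM of KO mice, and was 1.74-fold higher in LPM (0.80, SE 0.13, limma adjusted p = 9.13e-05). In WT it read 8.54, 8.28 and 8.53 in LPM against 7.66 and 7.45 in AM (0.90, adjusted p = 2.75e-05). Mrpl30 was higher in LPM by 0.63 in KO and 0.68 in WT. Mrpl33 was higher by 0.56 in KO and 0.43 in WT. Mrpl23 was higher by 0.48 in KO and 0.59 in WT. Mrpl58 (0.52) and Mrpl34 (0.43) were called higher in KO, while in WT they differed by 0.36 and 0.23 and were not called. In WT Mrps11 (0.55), Mrpl13 (0.49) and Mrpl3 (0.48) were called higher, while in KO they differed by 0.02, 0.20 and 0.31 and were not called.

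Mrpl1, which forms the stalk that guides leaving tRNAs, was lower in LPM, with differences of -0.65 in KO and -0.48 in WT. Mrps36 had differences of -0.63 in KO and -0.52 in WT, Mrpl51 of -0.58 and -0.54, and Mrpl41 of -0.35 and -0.53. In KO Mrpl11 (-0.43) and Mrpl38 (-0.41) were called lower, while in WT they differed by 0.05 and -0.28 and were not called. Whether the genotypes differ was tested for each member as the KO effect in LPM minus that in AM, and called for none.

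Other parts of mitochondrial gene expression were compared with the family under IL-4c. The nuclear subunits of the respiratory chain and ATP synthase, the complexes that mitochondrial ribosomes help to build, came closest to it. Of 78 tested, 51 rose and 1 fell in KO, and 60 rose and 3 fell in WT, with medians of 0.53 and 0.63. Protein import, with 28 tested genes, had 9 that rose (32.1%, beside 21.9% of all genes) and 1 that fell in KO. In WT it had 16 that rose (57.1%, beside 22%) and 1 that fell. Timm50, a receptor of the inner membrane, rose by 1.07 in KO and 1.48 in WT. Tomm5, a subunit of the outer-membrane pore, rose by 1.20 in KO and 1.32 in WT.

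Cytosolic ribosomal proteins did not follow. Of 60 tested, 7 rose and 9 fell in KO, and 8 rose and 14 fell in WT. That is 11.7% and 15% in KO and 13.3% and 23.3% in WT, beside 21.9% and 15.4%, and 22% and 19.2%, of all genes. Their median was -0.07 in KO and -0.12 in WT.

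**Figure D5:**
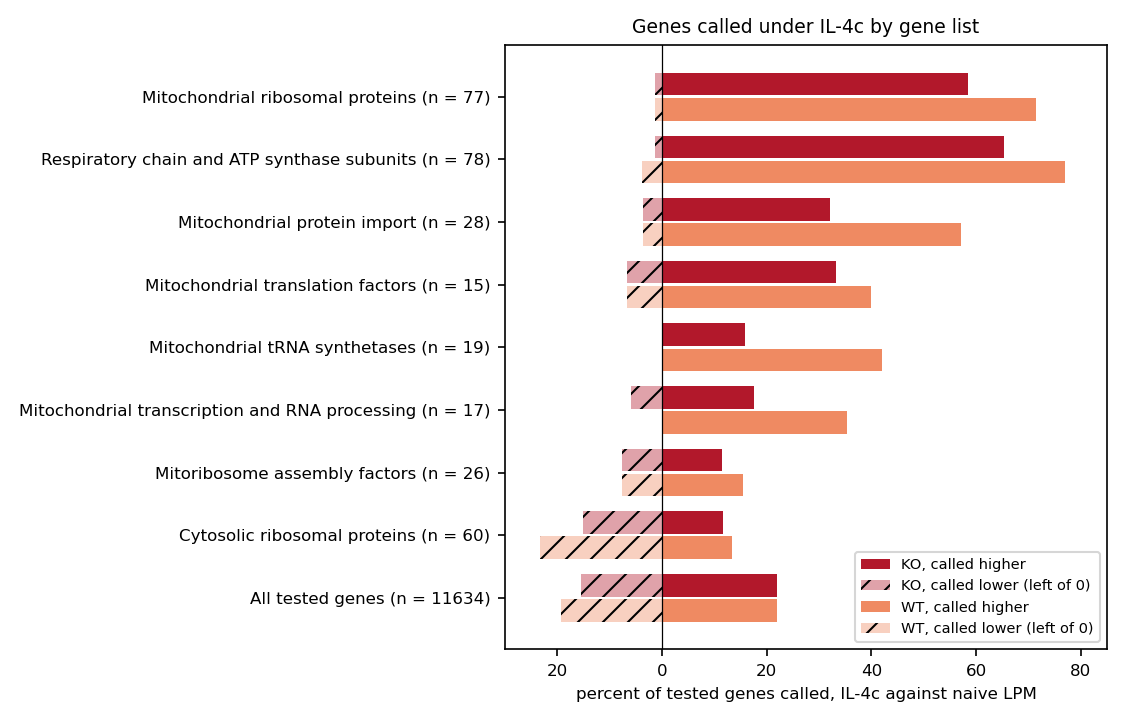
Percent of the tested genes of each list that were called higher (solid, right of 0) or lower (hatched, left of 0) with IL-4c in LPM, KO above WT in each pair; n is the number of tested genes. Mitochondrial ribosomal proteins (45 of 77 in KO and 55 of 77 in WT) and respiratory chain subunits (51 of 78 in KO and 60 of 78 in WT) have the longest bars, while cytosolic ribosomal proteins have more falls than rises in both genotypes.

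Factors that work on the mitochondrial ribosome were less uniform. Of 15 translation factors 5 rose (33.3%, beside 21.9% of all genes) and 1 fell in KO. In WT 6 of them rose (40%, beside 22%) and 1 fell. Tufm, the elongation factor that brings tRNAs, rose by 1.03 in KO and 0.84 in WT. Its partner Tsfm rose by 0.59 in KO and 1.03 in WT, and Gfm1, which moves the ribosome along the mRNA, by 0.70 in KO and 0.95 in WT. Of 19 mitochondrial tRNA synthetases and related enzymes 3 rose in KO (15.8%, beside 21.9% of all genes) and 8 in WT (42.1%, beside 22%), Cars2 by 0.85 in KO and 0.70 in WT. Of 17 genes of mitochondrial transcription and RNA processing 3 rose (17.6%, beside 21.9% of all genes) and 1 fell in KO. In WT 6 of them rose (35.3%, beside 22%). Tbrg4, an RNA-binding protein of mitochondria, rose by 0.89 in KO and 1.07 in WT, and Polrmt, the mitochondrial RNA polymerase, by 0.44 in KO and 0.57 in WT.

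Few assembly factors of the ribosome rose, and the difference of their share from that of all tested genes was not tested. Of 26 tested, 3 rose (11.5%, beside 21.9%) and 2 fell in KO, and 4 rose (15.4%, beside 22%) and 2 fell in WT, with medians of 0.02 and 0.07. Mpv17l2 was the exception in size, with 9.62 and 9.60 in IL-4c KO against 8.36, 8.12 and 8.21 in naive KO (1.38, limma adjusted p = 8.2e-07). In WT it read 9.58 and 9.88 with IL-4c against 8.24, 8.09 and 8.22 without (1.55, adjusted p = 1.55e-07). It is an inner-membrane protein known to associate with the large subunit. Ddx28, an RNA helicase of large-subunit assembly, fell by 0.62 in KO, and Mterf4, which guides an RNA methyltransferase to the ribosome, fell by 0.64 in WT.

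Proteins of the mitochondrial ribosome that carry other names were also mixed. Gadd45gip1, a large-subunit protein, rose by 0.56 in KO and 0.94 in WT. Dap3, a small-subunit protein that binds GTP, differed by 0.45 in KO (adjusted p = 0.109) and rose by 0.56 in WT. Ptcd3 fell by 0.37 in KO and differed by -0.14 in WT. Chchd1 was called in neither.

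Among 15 regulators of mitochondrial genes, 5 rose (33.3%, beside 21.9% of all genes) and 1 fell in KO, and 2 rose (13.3%, beside 22%) and 1 fell in WT. The 5 in KO include the Bhlhe40 probe set itself, which rose by 1.16 with IL-4c on the KO arrays. KO mice lack Bhlhe40, so this signal cannot be read as a working regulator that rose. The related Bhlhe41 fell there by 1.02. Ppargc1b, a coactivator of oxidative metabolism known from IL-4-treated macrophages, read 6.27 and 6.06 with IL-4c in KO against 4.81, 4.73 and 4.96 in naive KO, a rise of 1.33. In WT it read 6.44 and 6.30 against 4.71, 4.70 and 5.03, a rise of 1.56. Esrra, a nuclear receptor that works with it, rose by 0.55 in KO and 0.85 in WT. Transcripts of Nrf1, Gabpa and Yy1, whose motifs were searched, were not called. Nrf1 differed by -0.19 in KO and -0.36 in WT, Gabpa by 0.06 in KO and -0.15 in WT, and Yy1 by -0.09 in KO and -0.28 in WT. Myc differed by -0.10 in KO and 0.28 in WT, and was not called either.

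Between genotypes under IL-4c, at most 3 genes of each of these lists were called. Of 17 genes of transcription and RNA processing 1 was lower in KO (5.88%, beside 1.5% of all genes). In LysM 3 of them were lower (17.6%, beside 3.87% of all genes). Also lower in LysM were 1 of 15 translation factors (6.67%), 1 of 19 tRNA synthetases (5.26%) and 1 of 28 import genes (3.57%). Tfam packages mitochondrial DNA and starts its transcription. It read 5.44 and 5.37 in KO, 5.39 and 5.63 on the arrays labelled LysM, and 6.28 and 6.13 in WT. It fell in KO (-0.80, SE 0.18, limma adjusted p = 0.0237) and on the arrays labelled LysM (-0.69, SE 0.18, adjusted p = 0.028), 2 comparisons that share their WT arrays. Lrpprc, which stabilises mitochondrial mRNAs, read 7.25 and 7.27 on the arrays labelled LysM, 7.62 and 7.47 in KO, and 7.77 and 7.92 in WT, and fell by 0.59 in LysM. Myc fell by 0.78 in LysM, with 8.98 and 8.94 against 9.82 and 9.65 in WT, while KO differed from WT by -0.13. Rbfa, an assembly factor of the small subunit, rose by 0.60 in KO and 0.52 in LysM. Gtpbp10, an assembly factor of the large subunit, fell by 0.77 in KO (limma adjusted p = 0.0425) and differed by -0.38 in LysM. Called lower in LysM were also Ptcd2 (-0.59) and Supv3l1 (-0.54), which act in mitochondrial RNA processing, Gatb (-0.51), which helps to charge a mitochondrial tRNA, and the chaperone Hspd1 (-0.49).

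Many members share a start region with a gene on the other strand. A divergent start within 1000 bases was annotated for 26 of the 68 members in the table (38.2%), against 19.3% of tested genes and 12.3% of all genes. Mrpl46 and Mrps11 are such a pair, with starts 42 bases apart. Mrpl46 rose by 0.47 in KO and 0.66 in WT, and Mrps11 by 1.05 in KO and 0.62 in WT. For 20 members the partner was another tested gene that is no member. Of these 20 members 12 rose in KO and 17 in WT. Of the 20 partners 5 rose in KO and 7 in WT, where 21.9% and 22% of all tested genes rose. The partner medians were 0.22 in KO and 0.18 in WT, beside member medians of 0.60 and 0.73.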

How the data were processed

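RNA of sorted macrophages was measured on 16 one-colour arrays in 7 groups. The values used are the log2 expression values deposited by the authors, summarised with RMA per the submitters' processing notes, in a version not given in the sources used here. RMA gives all arrays nearly the same distribution, so a change shared by most genes would not be seen. Of 30177 probe sets, 21789 name 1 gene symbol. The brightest probe set stood for each of 19938 genes, and the 11634 genes above the array median on at least 2 arrays were tested. The numbers of arrays limit the precision.

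One linear model with 7 group means was fitted to all 16 arrays in limma 3.58.1 (R 4.3.3), with moderated variances and Benjamini-Hochberg adjustment within each of 10 comparisons at 0.05. Adjusted p-values come from this fit, 95% intervals are unadjusted, and the fit was tested on simulated data. Figures were drawn with matplotlib 3.10.9 in Python 3.11.15.

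The members and lists were chosen with earlier results of these data known. In each comparison the text names the called members with the largest differences (up to 6 each way), those called against the majority, or the 3 with the lowest p where fewer than 3 were called, and Mrpl12, Mrpl44, Mrps5, Mrps30, Mrps36 and the Mrps18 paralogs where roles are described. Others were named for their role or position with their values known, among them Mrpl10, Mrpl24, Mrpl27, Mrpl36, Mrpl37, Mrpl41, Mrpl46, Mrpl58, Mrps11 and Mrps12. Mrpl53 shares its probe set with another gene and is not analysed here. Alternatives changed the scaling, the filter, the probe set rule, the variance model, array weights, the arrays fitted, a replicate block and each array in turn.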

Additional observations from a re-analysis of the deposited data

How the results depend on the processing

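Without 1 array at a time, the members called ranged from 42 to 53 for IL-4c in WT (56 with all arrays) and from 31 to 47 for IL-4c in KO (46), with medians of 0.538 to 0.674 in WT and 0.41 to 0.5 in KO. Mrps15, called between KO and WT with IL-4c, was lost (0 members called) when arrays were centred on their median, without a filter, with a filter set by olfactory receptor probe sets, with array weights, with the compared arrays alone and without any 1 array. For LysM against WT, 4 members were called with repeated quantile normalization and with an intensity trend, 2 with averaged probe sets and 0 with array weights or the compared arrays alone. Without 1 array this count ranged from 0 to 5 and the median from -0.308 to -0.123. Repeated quantile normalization moved the member median to 0.350 for IL-4c in KO, 0.038 for KO against WT in naive LPM, 0.029 for LPM against AM in KO and 0.031 for the KO effect in LPM minus that in AM. Centring gave -0.154 and -0.196 for the last pair, while moving the median of all genes to -0.105 and -0.178. Without 1 array the medians ranged from -0.101 to 0.032 for KO against WT in naive LPM, from -0.024 to 0.067 in AM, from -0.169 to -0.053 for the response in KO minus that in WT and from -0.165 to -0.024 for the KO effect in LPM minus that in AM. LPM against AM in KO had 8 to 14 members called. Mrps30, not called with IL-4c in KO (-0.02), was at 0.04 with centring, 0.05 with the replicate block and 0.02 with array weights, and between -0.15 and 0.13 without 1 array. Same-numbered deviations correlated at 0.066, 0.009 and -0.139 in naive LPM, which gave no sign of pairing there, and at -0.071 in AM. With IL-4c they correlated at 0.115 (KO and WT), 0.148 (LysM and WT) and 0.21 (KO and LysM). In AM and with IL-4c, 2 arrays a group make both pairs give the same value. This does not settle whether these arrays are paired. With the replicate block 44 members were called for IL-4c in KO, 58 in WT and 2 for LysM against WT. The cause of these changes was not tested.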
